A study of Condylura cristata and Mus musculus with 12 samples.

Results

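Gene expression in the sensory ganglia of the star-nosed mole, Condylura cristata, was set against that of the mouse with trigeminal and dorsal root ganglia pooled in each species. The trigeminal ganglia (TG) hold the cell bodies of the sensory neurons of the face, including those that supply the mole's star, and the dorsal root ganglia (DRG) hold those of the trunk and limbs. All 6 mole libraries (3 of TG, 3 of DRG) and 4 mouse libraries (2 of TG, 2 of DRG) entered the comparison, which makes 10 of the 12 samples of the series. The other 2, both from mouse, are not analysed here. The moles were adult males caught in the wild and the mice were adult C57BL/6 females, so species, sex, strain and rearing cannot be told apart. Each library came from 1 animal, except 1 mole DRG library that was pooled from 2 moles. The labels give no treatment.

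The reads of the species were counted against different references: mole reads against human, dog and mouse transcripts, with the hits to homologs summed under 1 symbol, and mouse reads against mouse transcripts. Counts of the same gene are therefore not on 1 scale. For this reason each symbol was ranked by its CPM, the count scaled to a common library total, within its own library, among the 24049 symbols that both tables held when case was ignored (of 33773 in the mole table and 26125 in the mouse table), and the ranks were written as percentiles from 0 to 100. A percentile orders symbols by counts, which grow with transcript length, and a difference in percentile compares a gene with the same gene in the other species. The reference, the read type (per the labels, single reads for the mole and paired reads for the mouse, though the study's methods name single-end protocols alone), and the depth all changed with species and cannot be told apart from it.

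The mole libraries held 8409670 to 92323879 counts, with 5 of the 6 at or below 11140894, and the mouse libraries 90548941 to 147076817. Shared symbols took 87.8% to 95.4% of mole counts and 99.8% to 99.9% of mouse counts. Between 6.54% and 24.4% of the shared symbols had no count in a mole library, against 2.46% to 7.72% in a mouse library. Spearman's rho between libraries was 0.886 to 0.973 within the mole, 0.977 to 0.992 within the mouse and 0.734 to 0.817 between species, a description over libraries that share a reference within a species. Mole TG replicate 1 and mole DRG replicate 1 were made with another kit and read length than the rest. In the mouse, the Hox family, whose members pattern the trunk and are low in the head, took 0.0237% and 0.0263% of counts in both libraries with the label TG, against 0.00621% and 0.00851% in both with the label DRG. In the mole they took 0.00653% to 0.0128% in TG and 0.0387% to 0.0438% in DRG, so the order of the labelled ganglia was opposite in the species. Hoxd1 did not share it, at percentiles 67.5 and 66.8 in the mouse with the label TG and 66.0 and 78.2 with the label DRG. A pooled mean does not change with these labels, and values that do depend on them are given as those of libraries labelled TG or DRG.

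Somatosensory neurons fall into classes with known genes. Peptidergic nociceptors carry Calca and Tac1, nonpeptidergic nociceptors carry P2rx3 and Mrgprd, and both use the sodium channels Scn9a, Scn10a and Scn11a. Large myelinated touch and muscle afferents carry neurofilaments, Ntrk2 or Ntrk3, and potassium channels that allow fast firing, and force itself is sensed by channels such as Piezo1 and Piezo2, listed here under their older symbols Fam38a and Fam38b.

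For 3 of the genes on which the sensory results turn, the primers that the study used for RT-PCR on mouse cDNA show which mouse gene was probed. They do not say which transcripts the counts came from. Each pair was found in mouse GENCODE M21 transcripts of the build GRCm38. The forward primers are shown first for each gene, 5′ to 3′, all in lower case since no base was singled out. Stoml3, a stomatin-like protein of touch neurons, lies at chr3:53488653-53508502 on the plus strand and its pair spans 462 bases of transcript.
Stoml3 forward: cgttaccttcccaatctcag
Stoml3 reverse: acatctttgatttccacccg
Pirt, a regulator of TRPV1 in nociceptors, lies at chr11:66911981-66929876, and its pair spans 273 bases.
Pirt forward: ccaaggccctggaggtagac
Pirt reverse: acaggaaggcaggccctatc
Cnga2, a subunit of the olfactory cyclic nucleotide-gated channel, lies at chrX:71991849-72010218, and its pair spans 239 bases.
Cnga2 forward: ggcgagggaaagggcaccaa
Cnga2 reverse: aagcctgtgcgcagccgaat

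The genes that lead both species were neurofilament and microtubule genes of neurons. Neurofilament medium chain (Nefm), Mtap1b, a protein that binds microtubules, and neurofilament light chain (Nefl) were among the 5 highest symbols of each species, with mean percentiles between 99.980 and 99.996. In the mole they were joined by Stmn2 and Tuba1a, a tubulin regulator and a tubulin, and in the mouse by Ndrg4, among others. Of the 121 symbols in the top percentile of the mean over species, 0 were called in rank by limma and 0 had an unadjusted p under 0.05, but a symbol so placed cannot differ by 10 points, so these ranks hold no test. By counts, edgeR called 18 of the 121 higher in the mole and 4 higher in the mouse, where 15.2% and 23.6% of all tested symbols were. Nefm was at 11924 CPM in the mole against 3756 in the mouse, and Stmn2 at 5591 against 1234.

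Of 17572 symbols with at least 1 CPM in at least 4 libraries, 2332 (13.3%) ranked higher in the mole and 2696 (15.3%) higher in the mouse by more than 10 percentile points, by limma's treat test with Benjamini-Hochberg adjustment at 0.05. These shares are the background for every gene list below. By counts, edgeR's quasi-likelihood test with a minimum of 2-fold called 2670 (15.2%) higher in the mole and 4154 (23.6%) higher in the mouse. It called 94.0% of the symbols ranked higher in the mole and 99.7% of those ranked higher in the mouse in the same direction, and 0 in the opposite direction. The median difference over all tested symbols was -0.30 points and the median size of a difference was 11.2 points. Within 10 points of each other were 8103 symbols (46.1%), and 334 were 50 points or more apart. The percentiles of the species did not overlap for 9425 tested symbols (53.6%). Among called symbols this held for 2315 of the 2332 higher in the mole and 2689 of the 2696 higher in the mouse. Leaving out 1 library at a time gave 1953 to 2530 calls for the mole and 2283 to 2926 for the mouse.

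**Figure D1:**
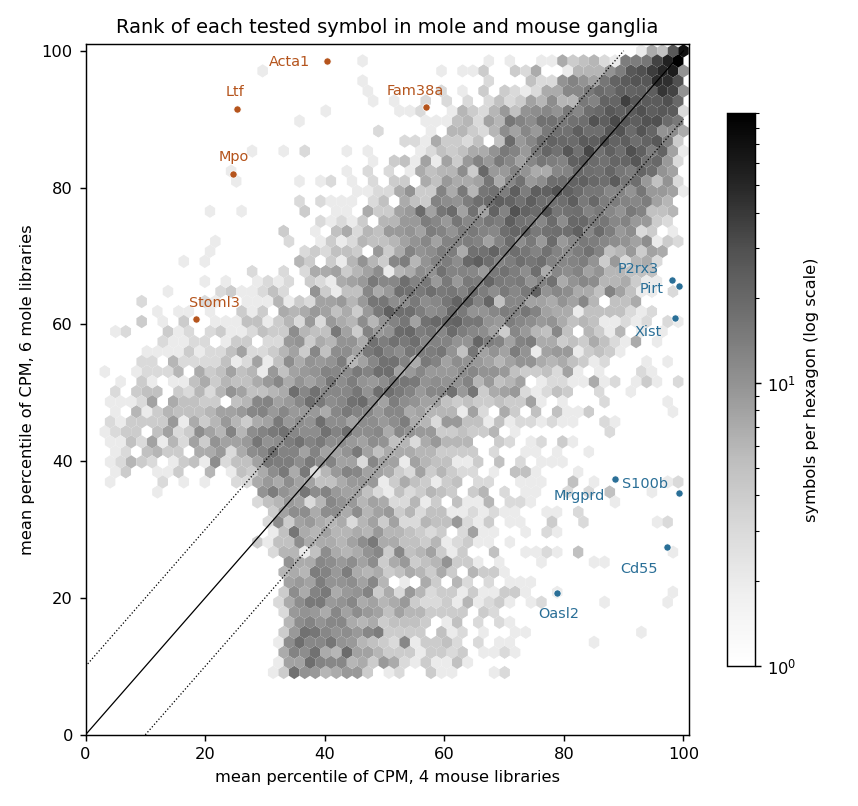
Mean percentile of each tested symbol in the 4 mouse libraries (x axis) and in the 6 mole libraries (y axis), coloured by the number of symbols in each hexagon, with dotted lines 10 points from equality. Named genes far from equality include Stoml3, Fam38a, Acta1, Ltf and Mpo above the line and P2rx3, Mrgprd, Pirt, Cd55, S100b, Oasl2 and Xist under it.

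Nonpeptidergic nociceptor genes were called in 1 direction, lower in the mole. Of 9 tested members, 3 were called higher in the mouse and 0 in the mole, with a median difference of -16.9 points against -0.30 over all tested symbols. Together the list took 0.0240% to 0.187% of counts in the mole libraries and 0.202% to 0.391% in the mouse libraries, without overlap. In bulk samples fewer cells of a type and less RNA per cell cannot be told apart. P2rx3, an ATP-gated channel of nociceptors, was at percentiles 53.6, 64 and 66.7 in the mole TG, 80.2, 62.4 and 71.9 in the mole DRG, and 98.7, 98.9, 97.3 and 97.4 in the mouse libraries. Every mouse value stood above every mole value, by a mean of 31.6 ± 4.13 points (SE, limma adjusted p 0.000926). In CPM it was 17.8 ± 13.1 (SD, n = 6) in the mole and 358 ± 120 (SD, n = 4) in the mouse. For P2rx3 the two-sided exact permutation test of the species labels gave p = 0.0048, the smallest it can give. Of all tested symbols, 53.6% did not overlap between the species.

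Mrgprd, the receptor that defines a class of nonpeptidergic nociceptors of the skin, was at 35.5, 46.0 and 40.6 in the mole TG, 37.8, 32.7 and 32.1 in the mole DRG, and 94.0, 94.8, 84.1 and 81.4 in the mouse. The groups lay far apart, with 1.10 ± 1.07 CPM (SD, n = 6) in the mole against 106 ± 54.9 (SD, n = 4) in the mouse. The difference in rank was 51.1 ± 3.66 points (SE, limma adjusted p 4.06e-06). Lpar3, a lysophosphatidic acid receptor, was lower in the mole by 25.2 ± 4.84 points (SE, limma adjusted p 0.0184), and that call was lost without mouse TG replicate 1 or 2 (adjusted p 0.0617 to 0.0642). The growth factor receptor Ret, at a mean of 423 CPM in the mole and 1083 in the mouse, differed by -3.80 points and was not called. By counts edgeR called 6 of the 9 higher in the mouse, among them the receptor subunit Gfra2 and the semaphorin receptor Plxnc1. In the libraries labelled TG 7 of the 9 were called higher in the mouse in rank, and in those labelled DRG 2, where 17% and 11.8% of all tested symbols were.

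Peptidergic nociceptor genes gave 2 calls, both on neuropeptides that ranked lower in the mole. Calca, which encodes the peptide CGRP, was at 93.2, 89.6 and 91.1 in the mole TG, 99.4, 99.5 and 99.7 in the mole DRG, and 99.7, 99.5, 98.6 and 99.1 in the mouse. The mole DRG thus overlapped the mouse libraries and the mole TG stood under them, with a mean difference of -3.82 ± 2.05 points (SE) that was not called (limma adjusted p 1). Of 7 tested members, 2 were called higher in the mouse and 0 in the mole. Calcb, the second CGRP gene, was at 7.14 CPM in the mole and 81.2 in the mouse (-32.4 ± 6.46 points, SE, limma adjusted p 0.0113), and reads of Calca and Calcb can be shared. Nmb, the bombesin-like peptide neuromedin B, was at 1.56 and 51.2 CPM (-38.1 ± 3.58 points, SE, limma adjusted p 5.61e-05). Tac1, the substance P precursor, differed by 2.95 points in rank but was higher in the mole by counts (1284 against 143 CPM, log2 fold change 3.42, edgeR adjusted p 0.0302). The excess lay in the mole DRG, at 1361, 3531 and 2382 CPM. The mole TG libraries were at 200, 117 and 115 CPM, near the mouse libraries at 112 to 156.

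Genes for irritant, heat, cold and itch sensing gave 1 call in each direction among 13 tested members. Mrgpra3, an itch receptor, was at percentiles 6.84 to 22.3 in the mole and 47.4 to 69.4 in the mouse, with mean levels of 0.0378 and 16.1 CPM (-47.2 ± 4.82 points, SE, limma adjusted p 6.30e-05). It belongs to a family that is expanded in rodents, and the symbol was not in the mole annotation. Sst, the peptide somatostatin, ranked higher in the mole by 24.2 ± 5.03 points (SE, limma adjusted p 0.0303), and leaving out any 1 of 7 libraries ended that call (adjusted p 0.0523 to 0.0886). Trpv1, the capsaicin receptor, was at 62.3, 71.1 and 72.5 in the mole TG, 93.7, 94.1 and 92.6 in the mole DRG, 92.7 and 93.0 in the mouse libraries with the label TG, against 82.7 and 80.4 with the label DRG. Trpa1, which senses mustard oil, had the same layout, and neither was called over the pooled libraries (-6.13 and -7.84 points, limma adjusted p 1 for both). Trpm8, the menthol receptor, differed by -11.3 ± 4.70 points (SE) and was not called (limma adjusted p 0.782).

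Of 14 sodium channel genes 0 were called in rank by limma and 0 by counts with edgeR, and 1 had an unadjusted p under 0.05 in favour of the mouse (Scn3b, a channel subunit, -22.2 points, limma adjusted p 0.0716). The list took 0.126% to 0.323% of counts in the mole and 0.371% to 0.534% in the mouse. Scn10a, the main sodium channel of nociceptors, was at 88.0, 76.1 and 78.9 in the mole TG, 99.3, 98.4 and 99.3 in the mole DRG, and 99.8, 99.8, 99.6 and 99.4 in the mouse. Scn11a was at 65.8, 61.6 and 64.7 in the mole TG, 98.7, 97.5 and 99.3 in the mole DRG, and 99.6, 99.7, 98.9 and 98.5 in the mouse. For both, the 3 mole TG libraries were lower than all other libraries. Pooled, Scn11a differed by -17.9 ± 8.05 points (SE, limma adjusted p 0.407), and the species difference itself changed with the labelled ganglion by -35.4 points (interaction, limma adjusted p 2.64e-05).

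**Figure D2:**
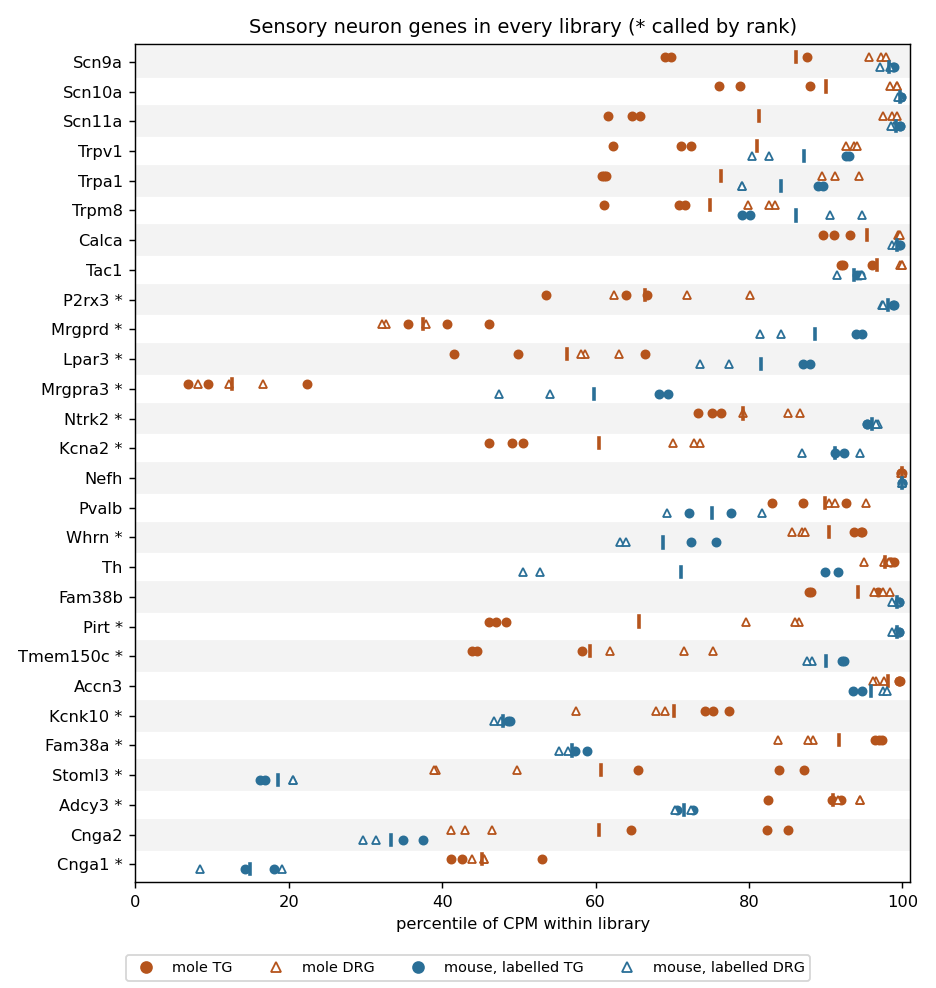
Percentile of sensory genes in each library, with filled circles for libraries labelled TG, open triangles for libraries labelled DRG, a bar at each species' mean and an asterisk where the rank test called a difference. P2rx3, Mrgprd and Pirt lie lower in every mole library than in every mouse library, while Fam38a and Stoml3 lie higher.

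Over the pooled libraries, genes of light touch neurons gave 2 calls, both for the mouse. Of all tested symbols 15.3% were called for the mouse, and of those with a gene name 8.25%. The neurofilament genes Nefl, Nefm and Nefh, which mark large myelinated neurons, stood in the top percentile of every library in both species. Kcna2, a potassium channel of myelinated axons, was at 49.1, 46.0 and 50.5 in the mole TG, 70.1, 73.6 and 72.8 in the mole DRG, and 91.3, 92.3, 94.5 and 87.0 in the mouse. Its mole values all lay under its mouse values, by 30.9 ± 5.87 points (SE, limma adjusted p 0.00981). Ntrk2, the receptor for brain-derived neurotrophic factor, was lower in the mole by 16.7 ± 2.61 points (SE, limma adjusted p 0.0433), and the call was lost without any 1 of 8 libraries (adjusted p 0.0598 to 0.101). The transcription factor Maf of touch neurons was at 89.8 to 97.5 in the mole and 77.5 to 93.6 in the mouse and was not called (9.09 points, limma adjusted p 1). In all, 2 of 12 tested members were called higher in the mouse and 0 in the mole, with 4 for the mouse and 2 for the mole within the libraries labelled TG and 0 within those labelled DRG.

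Among 7 genes of proprioceptors, the afferents of muscle stretch, 1 was called higher in the mole and 0 in the mouse. Whrn, the scaffold protein whirlin, was at 93.6, 94.6 and 94.7 in the mole TG, 87.0, 85.6 and 87.3 in the mole DRG, and 75.8, 72.5, 63.1 and 64 in the mouse. The difference was 21.6 ± 3.08 points (SE, limma adjusted p 0.00711). Pvalb, the calcium-binding protein parvalbumin, was at 83.0 to 95.2 in the mole and 69.3 to 81.7 in the mouse, a difference of 14.7 ± 2.89 points (SE) that was not called (limma adjusted p 0.178). Ntrk3, the receptor for neurotrophin 3, differed by 3.12 points and was not called. Of 4 genes of unmyelinated touch neurons, Fam19a4, a secreted protein, was called higher in the mouse (-24.2 ± 5.04 points, SE, limma adjusted p 0.0303), a call that was lost without any 1 of 4 libraries (adjusted p 0.0565 to 0.109). Th, tyrosine hydroxylase, was at 95.0 to 98.9 in all mole libraries, at 91.7 and 89.9 in the mouse libraries labelled TG, and at 50.5 and 52.7 in those labelled DRG. Its pooled difference of 26.6 ± 7.5 points (SE) was not called (limma adjusted p 0.0770), but it was called without mouse TG replicate 1 (0.0170) or 2 (0.0230).

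Of 17 genes linked to mechanotransduction, 3 were called higher in the mole and 2 higher in the mouse, shares near the background, so the list as a whole did not stand apart and single members are described. Fam38a, or Piezo1, at chr8:122481698-122551329 in the mouse build GRCm38, was at 97.4, 97 and 96.4 in the mole TG, 83.8, 88.3 and 87.7 in the mole DRG, and 58.9, 57.3, 56.4 and 55.2 in the mouse. All 6 mole values stood above the mouse values, by 34.8 ± 3.00 points (SE, limma adjusted p 3.86e-05). Its level was 166 ± 108 CPM (SD, n = 6) in the mole and 11.9 ± 1.14 (SD, n = 4) in the mouse, and edgeR gave a log2 ratio of 3.89 with an adjusted p of 0.000154. Fam38b, or Piezo2, the main channel of mammalian light touch, was high in both species (means of 213 and 626 CPM) and differed by -5.08 ± 2.13 points (SE, limma adjusted p 1).

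Stoml3 was at 65.5, 87.2 and 83.9 in the mole TG, 39.2, 49.7 and 38.9 in the mole DRG, and 16.2, 16.9, 20.5 and 20.5 in the mouse. The mole TG libraries stood highest and the mouse libraries lowest, at 22.1 ± 28.6 CPM (SD, n = 6) in the mole and 0.160 ± 0.0609 (SD, n = 4) in the mouse. Markers of olfactory tissue moved with it across the mole libraries: Omp, the olfactory marker protein, was at 68.5, 93.2 and 91.0 in the mole TG and 45.9, 51.3 and 44.4 in the mole DRG, and their part in the result was not tested. The pooled difference of 42.2 ± 9.33 points (SE) was called (limma adjusted p 0.0117), and it was not called within the libraries labelled DRG (limma adjusted p 0.0727). Nor was it called with ranks among symbols counted in every library, named symbols or symbols of the mole annotation (limma adjusted p 0.0924, 0.0966 and 0.176). A minimum of 20 points ended the call too (0.139). Kcnk10, a potassium channel that opens with membrane stretch, ranked higher in the mole by 22.2 ± 3.59 points (SE, limma adjusted p 0.0123). The acid-sensing channel gene Accn3 was at 96.1 to 99.7 in the mole and 93.5 to 97.9 in the mouse and was not called.

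Pirt was the highest of the members that favoured the mouse. It was at 47.0, 46.0 and 48.3 in the mole TG, 86.5, 79.7 and 86 in the mole DRG, and 99.5, 99.6, 99.2 and 98.6 in the mouse. The mole TG libraries were far under the mole DRG libraries, and both under the mouse, with means of 30.0 and 642 CPM (-33.6 ± 8.75 points, SE, limma adjusted p 0.0367). Leaving out any 1 of 7 libraries ended this call (adjusted p 0.0653 to 0.0746). Tmem150c, or tentonin 3, which has been linked to slowly adapting currents, was lower in the mole by 30.8 ± 5.89 points (SE, limma adjusted p 0.0101).

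Of 7 tested genes of cyclic nucleotide signalling, 2 were called higher in the mole and 0 in the mouse in rank, and 3 and 1 by counts with edgeR. The call for the mouse was Gnal, an olfactory G protein subunit (log2 fold change -1.66, edgeR adjusted p 0.0425). The list took 0.0125% to 0.0505% of counts in the mole and 0.0346% to 0.0675% in the mouse. Adcy3, the adenylyl cyclase of olfactory cilia, was at 82.4, 90.9 and 92.0 in the mole TG, 94.5, 91.6 and 94.5 in the mole DRG, and 70.6, 72.7, 72.4 and 70.4 in the mouse (19.5 ± 2.36 points, SE, limma adjusted p 0.00514). Cnga1, the rod photoreceptor channel subunit, was low in both species, at 2.23 and 0.0987 CPM, and differed by 30.3 ± 3.18 points (SE, limma adjusted p 0.000232). Cnga2 was at 64.6, 85.1 and 82.4 in the mole TG, 42.9, 46.5 and 41.1 in the mole DRG, and 34.8, 37.4, 31.3 and 29.6 in the mouse. Its groups did not overlap, but the spread between mole TG and DRG left the pooled difference of 27.1 ± 8.69 points (SE) uncalled (limma adjusted p 0.111). It was called by counts (log2 fold change 3.73, edgeR adjusted p 0.0291), and in rank without mole DRG replicate 3 (0.0476). Omp, given above for the mole, was at 46.4 to 50.6 in the mouse and was not called (17.7 points, limma adjusted p 0.498). Rya3, a symbol that entered by the size of its difference, was at 363 to 1173 CPM in the mole TG, 2.31 to 18.1 in the mole DRG and at a mean of 0.0256 in the mouse.

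Of 10 receptors that dampen neuronal firing, 2 were called higher in the mole and 0 in the mouse. Adra2a, the alpha-2A adrenergic receptor, was at 63.0 to 75.6 in the mole and 44.3 to 50.9 in the mouse (20.9 ± 2.93 points, SE, limma adjusted p 0.00774). Sstr2, a somatostatin receptor, differed by 20.4 ± 3.63 points (SE, limma adjusted p 0.0284), a call that was lost without any 1 of 3 mouse libraries (adjusted p 0.0590 to 0.0856). Oprm1, the mu opioid receptor, was at 39.4 to 80.4 in the mole and 35.7 to 44.8 in the mouse, a difference of 17.2 points that was not called (limma adjusted p 0.339). Cnr1, the cannabinoid receptor, differed by -22 points and was not called (limma adjusted p 0.147).

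The lists of genes of most neurons, myelin and satellite glia gave 0 calls in rank. The median percentile of 13 genes of most neurons was 99.3 in the mole and 99.4 in the mouse, where ranks can hardly differ by 10 points, so the absence of calls says little about them. Limma called 0 in either direction, with 0 at an unadjusted p under 0.05 and a median difference of 0.06 points, and edgeR called 2 higher in the mole by counts. They took 1.73% to 2.93% of counts in the mole and 0.863% to 1.11% in the mouse. Of 14 myelin genes and 10 genes of satellite glia, limma called 0, with 0 at an unadjusted p under 0.05 and medians of -0.12 and -0.47 points. Their median percentiles in mole and mouse were 92.6 and 95.5 for myelin and 94.9 and 92.1 for satellite glia. Of all tested symbols at 90 to 99, 0.68% were called for the mole and 0.19% for the mouse, so the absence of calls says little here too. By counts edgeR called 1 myelin gene higher in the mouse, and 2 satellite glia genes higher in the mole and 1 in the mouse. The myelin list took 1.22% to 1.48% of counts in the mole TG and 0.232% to 0.407% in the mole DRG. In the mouse it took 0.469% and 0.472% with the label TG, against 1.21% and 1.46% with the label DRG. The interaction was called for 10 of the 14 myelin genes, all higher in libraries labelled TG, where 8.08% of all tested symbols were. Pooling averaged over this opposite order. Of 12 reference genes, Ppia, a prolyl isomerase, was lower in the mole (means of 12.9 and 562 CPM, -34.9 ± 3.26 points, SE, limma adjusted p 6.67e-05), and Tbp, the TATA-binding protein, was higher by 16.2 points (0.0458), a call lost without any 1 of 8 libraries. Gapdh, the glycolytic enzyme, stood at mean percentiles of 99.9 and 99.4 and was higher in the mole by counts (log2 fold change 2.09, edgeR adjusted p 0.000678).

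**Figure D3:**
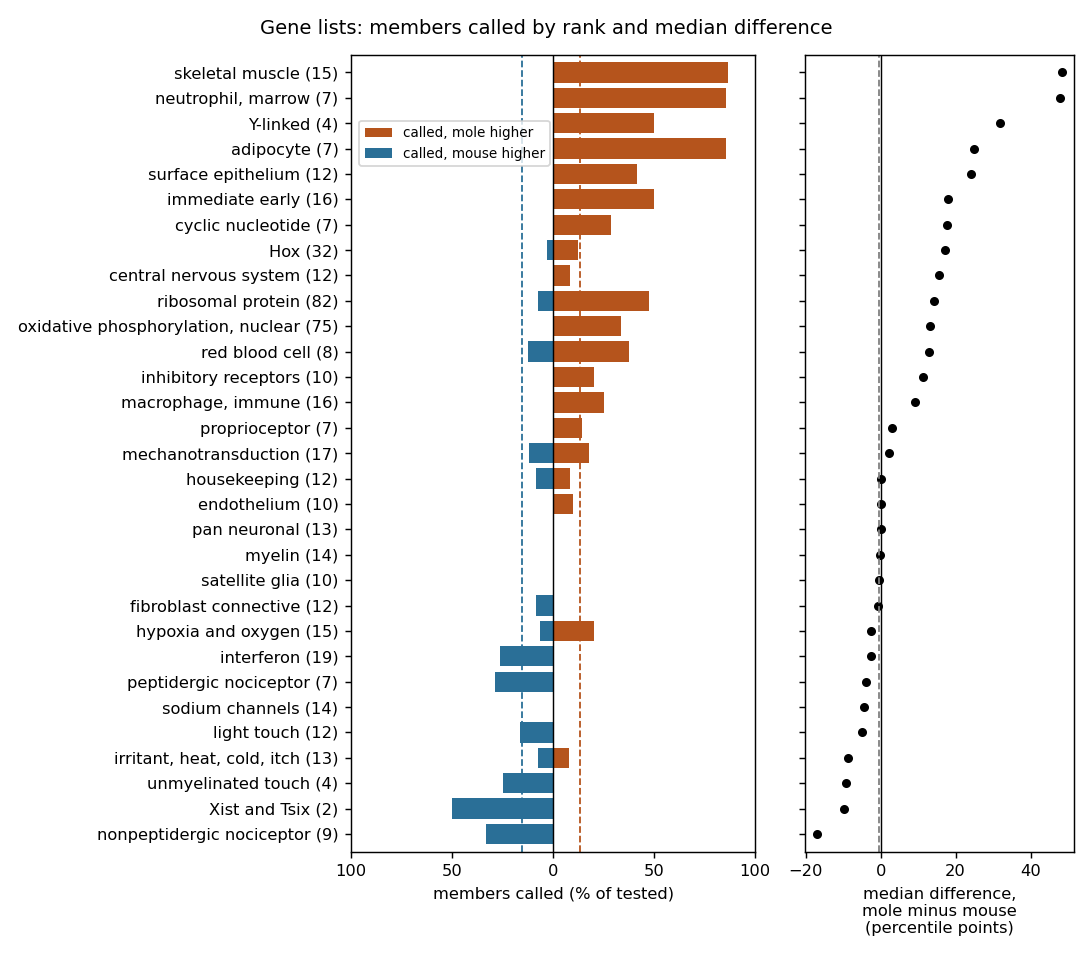
Share of the tested members of each gene list called higher in the mole or in the mouse (left, percent, with dashed lines at the background shares) and the median difference in percentile of each list (right, points, mole minus mouse). Skeletal muscle, neutrophil and adipocyte lists have most of their members called higher in the mole. Several lists have calls for the mouse alone, among them the nonpeptidergic nociceptor, peptidergic nociceptor, light touch and interferon lists.

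Many genes of other tissues and blood cells were called higher in the mole. Of 15 skeletal muscle genes, 13 were called higher in the mole and 0 in the mouse, with a median difference of 48.4 points. Acta1, the actin of skeletal muscle, averaged 567 CPM in the mole and 3.98 in the mouse, or percentiles of 98.6 ± 0.957 (SD, n = 6) and 40.3 ± 11.2 (SD, n = 4). The fast troponin T gene Tnnt3 averaged 443 and 2.26 CPM, creatine kinase Ckm 92.1 and 2.89, and the oxygen store myoglobin (Mb) 100 and 0.697. Summed over the list, muscle genes took 0.0706% to 0.495% of counts in the mole libraries and 0.00165% to 0.00862% in the mouse libraries.

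Neutrophil and marrow genes gave 6 of 7 calls for the mole and 0 for the mouse. The granule proteins lactoferrin (Ltf) and myeloperoxidase (Mpo) averaged 130 and 52.6 CPM in the mole and 0.549 and 0.462 in the mouse. S100a8, a calcium-binding protein of neutrophils, was at 64, 35.6 and 43.1 in the mole TG, 98.1, 75 and 97.4 in the mole DRG, and 13.3 to 30.3 in the mouse. The mole DRG libraries stood above the mole TG libraries for it, and without mole TG replicate 1 and mole DRG replicate 2 the list gave 4 calls. S100a8 lost its call with TruSeq libraries alone and with ranks among named symbols or symbols of the mole annotation (limma adjusted p 0.0568, 0.0748 and 0.114). The summed level of the list was 0.0166% to 0.140% of counts in the mole and 0.000185% to 0.000633% in the mouse.

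Adipocyte genes, among them the hormone adiponectin (Adipoq) and the lipid droplet protein Plin1, gave 6 of 7 calls for the mole, at low levels of 0.00297% to 0.00570% of counts against 0.000933% to 0.00181%. Surface epithelium gave 5 of 12, and 3 without mouse TG replicate 1 or 2 or mouse DRG replicate 1. The summed level of the list went the other way in all mole libraries but 1, at 0.00909% to 0.0142% of counts in 5 of them and 0.145% in mole TG replicate 1, against 0.0176% to 0.0195% in the mouse. Krt5, a keratin of basal epithelium, was at 93.1 in mole TG replicate 1 and at 28.1 to 54.0 in the other mole libraries, and its call (limma adjusted p 0.0394) was lost without any 1 of 5 other libraries (0.0590 to 0.100). Epcam, an epithelial adhesion protein, was higher in the mole by 52.9 ± 3.71 points (SE, limma adjusted p 3.35e-06). Red blood cell genes gave 3 of 8 calls for the mole and 1 for the mouse, with beta globin Hbb-b1 at 1026 and 33.3 CPM, and reads of globin copies can be shared. Macrophage and other immune genes gave 4 of 16 for the mole, among them the complement gene C1qc, the integrin Itgam and the lysosomal Cd68, and 7 without mole DRG replicate 1 or 3. The call of C1qc was lost without any 1 of 6 libraries (adjusted p 0.0576 to 0.0966).

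Of the genes of the central nervous system 1 of 12 was called for the mole, Aldh1l1, an astrocyte enzyme, and without any 1 of 8 libraries it was not (adjusted p 0.0527 to 0.105). The list took 0.0326% to 0.0798% of counts in the mole TG and 0.00707% to 0.0135% in the mole DRG. In the mouse it took 0.00417% and 0.00507% with the label TG, against 0.0236% and 0.0251% with the label DRG. The interaction was called for 7 of the 12, all higher in libraries labelled TG, where 8.08% of all tested symbols were. The endothelial list gave 1 of 10 for the mole (Vwf, von Willebrand factor) and the fibroblast list 1 of 12 for the mouse (Ogn, osteoglycin). Where the summed level of such lists moved with species, its part in the calls on neuronal genes was not tested.

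**Figure D4:**
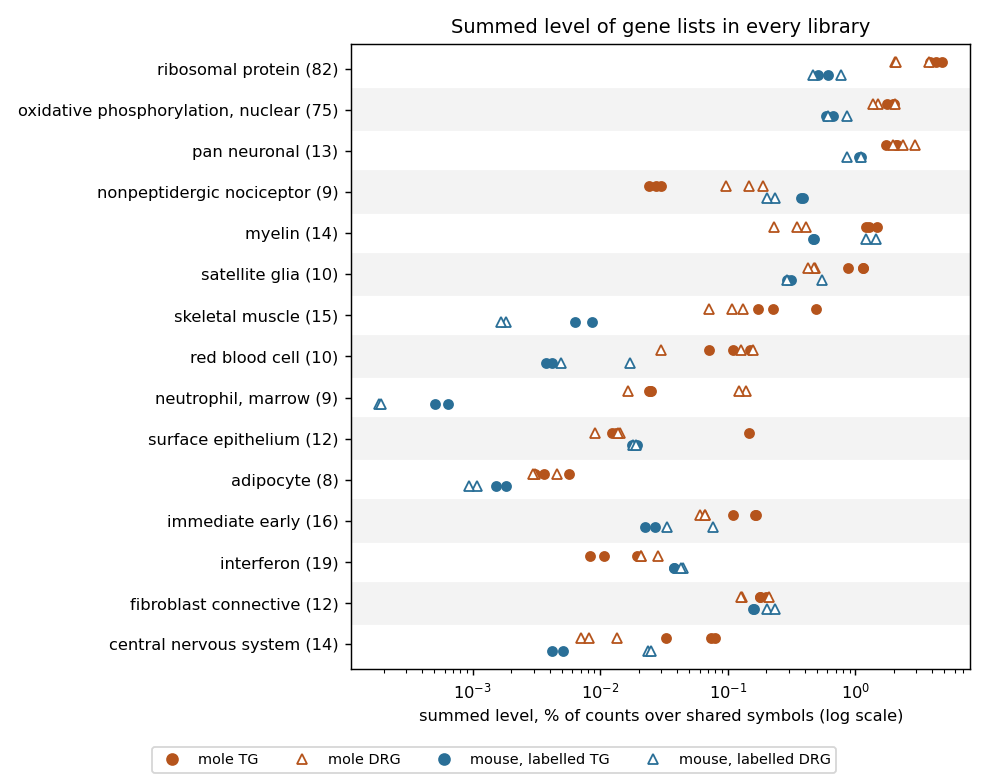
Summed share of counts (percent, log axis) of 15 gene lists in each library, with filled circles for libraries labelled TG and open triangles for libraries labelled DRG. Skeletal muscle, neutrophil, ribosomal protein and oxidative phosphorylation lists lie higher in every mole library than in every mouse library.

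Interferon-stimulated genes ranked higher in the mouse in 5 of 19 members, with 0 called for the mole and a median difference of -2.54 points. Oasl2, an antiviral protein, averaged 0.180 CPM in the mole and 45.2 in the mouse (-58.0 ± 4.51 points, SE, limma adjusted p 5.89e-06). Ifit1, Ifit2 and Ifit3, which bind viral RNA or its complexes, were lower in the mole by 26.5, 34.9 and 23.9 points (limma adjusted p 0.00362, 2.93e-05 and 0.00253). Irf7, a transcription factor of the response, was lower by 21.7 points (0.0455), a call that was lost without any 1 of 6 libraries. Of these 5 symbols, Oasl2, Ifit1 and Ifit3 were not in the mole annotation.

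Immediate early and heat shock genes ranked higher in the mole in 8 of 16 members and in the mouse in 0. The transcription factor Fos was at mean percentiles of 70.6 and 44.5 (26.1 ± 2.68 points, SE, limma adjusted p 0.000352), and Ier2 and Junb differed by 31.3 and 27.9 points. The heat shock genes Hspa1a and Hspa1b, near-identical copies that can share reads, averaged 163 and 95.4 CPM in the mole and 20.5 and 23.7 in the mouse. Hspa1b lost its call without mouse TG replicate 1 or 2 or mouse DRG replicate 1 (adjusted p 0.0590 to 0.0821). Within the libraries labelled TG 12 members were called and within those labelled DRG 1, against backgrounds for the mole of 16.6% and 9.25%. The interaction was called for 5 of the 16, all higher in libraries labelled TG, and not for Fos (limma adjusted p 0.406). Without mouse TG replicate 1 or 2, or mouse DRG replicate 1, the pooled libraries gave 4, 4 and 5.

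Genes of the oxygen response gave 3 of 15 calls for the mole and 1 for the mouse. Those for the mole were myoglobin, the oxygen sensor Egln3 (20.8 points, limma adjusted p 0.00375) and Ankrd37 (17.8 points, 0.0308, lost without any 1 of 6 libraries). Pdk1, a kinase that limits the entry of pyruvate into mitochondria, was lower in the mole by 27.4 ± 2.90 points (SE, limma adjusted p 0.000352).

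Many genes of translation and respiration were called higher in the mole. Of 82 cytoplasmic ribosomal protein genes, 39 were called higher in the mole and 6 in the mouse in rank, with a median difference of 14.2 points, and 71 and 6 by counts. The list took 2.05% to 4.81% of counts in the mole and 0.465% to 0.774% in the mouse. Rps27 averaged percentiles of 97.8 and 58.3, and Rps29 and Rpl37 were higher in the mole by 36.9 and 35.1 points. The 6 that favoured the mouse were Rpl15, lower in the mole by 69.3 points, Rpl21, Rpl36, Rps12, Rps15a and Rps24. Ribosomal protein genes have many processed copies whose reads can be shared, and Rpl10l, a retained copy of Rpl10, was among the symbols with the largest difference in favour of the mole (140 and 0.0709 CPM). Of 75 genes of oxidative phosphorylation, 25 were called higher in the mole and 0 in the mouse, with Ndufa2 of complex I and Cox5b of complex IV up by 32.8 and 32.5 points. They took 1.38% to 2.05% of counts in the mole and 0.593% to 0.856% in the mouse.

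The labelled sexes differed between the species, and so did sex-linked genes. Xist, the RNA that silences an X chromosome in females, was at 10.8 CPM in the male moles and 390 in the female mice, a difference of -37.5 points (limma adjusted p 0.000229). The Y-linked genes Kdm5d and Usp9y were at 21 and 14.8 CPM in the mole and 0.00739 and 0.0113 in the mouse. Ddx3y, also Y-linked, was at 0.202 and 1.94 CPM and was not called in rank. By counts it was called the other way, higher in the mouse (log2 fold change -2.89, edgeR adjusted p 0.0108). Reads of X homologs can be shared for Ddx3y, and for Kdm5d and Usp9y as well. Tsix, the other tested member of the list that holds Xist, leaned to the mole with an unadjusted p under 0.05 (limma) and was not called.

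Single symbols with the largest differences in either direction were mixed with unnamed gene models. Among the 8 that favoured the mole with at least 1 count in every library were Lgr6, a receptor of Wnt signalling (202 and 0.385 CPM, 72.0 ± 2.57 points, SE, limma adjusted p 1.53e-08), lactoferrin, and H2-Q10, a histocompatibility gene with close copies. The other 5 were Rpl10l, Rya3, Gm12034, Gm10196 and Gm13611, of which those that begin with Gm are predicted genes. Lgals3, the lectin galectin 3, averaged 941 and 5.32 CPM (52.6 ± 1.70 points, SE, limma adjusted p 1.23e-08), and Tubb6, a tubulin, 1401 and 21 CPM.

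Among the 8 that favoured the mouse were Cd55, a complement inhibitor on nociceptors, with 0.362 CPM in the mole and 309 in the mouse (-69.8 ± 4.16 points, SE, limma adjusted p 6.79e-07), and S100b, a calcium-binding protein of Schwann and satellite cells, with 0.980 and 630 CPM (-64 ± 3.37 points, SE, limma adjusted p 3.05e-07). In the mouse reference Cd55 lies at chr1:130439027-130462744 and S100b at chr10:76253853-76261159. Cd24a, H2-D1, Gm12070, Loc100503539, Tmem181b-ps and Loc100504785 made up the rest. Of these 8 symbols, Cd55 alone was in the mole annotation. By counts, the symbols in the top percentile that were lowest in the mole relative to the mouse were Rian, a long noncoding RNA, Scd2, a fatty acid desaturase (1.26 and 2466 CPM), Gm3662 and 4933409k07rik.

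Some symbols had at most 3 counts in all libraries of 1 species, a limit of 0.0224 CPM over the 134064721 shared counts of the mole and of 0.00613 CPM over the 489319370 of the mouse, so the numbers of such symbols cannot be compared between species. In the mouse there were 27, of which the most abundant in the mole were Gm4832, Cpvl, Hdhd1a, S100a5 and Cetn1. Cpvl, a carboxypeptidase, had 48.1 CPM in the mole and 1 count in the mouse, and the olfactory calcium-binding gene S100a5 had 21.8 CPM and 2 counts. In the mole there were 305, of which the most abundant in the mouse were Gm14288, 1700066j24rik, Etohi1, Zrsr1 and Loc100504372. Zrsr1, an imprinted splicing gene, had 72.6 CPM in the mouse and 2 counts in the mole. Of the 27 symbols, 17 were present in the mole RefSeq annotation, against 1 of the 305.

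The direction of the calls also varied with the kind of symbol. Of 14519 tested symbols with a gene name, 15% were called higher in the mole and 8.25% higher in the mouse, with a median difference of 1.66 points. Of 3037 predicted genes and clone names, 4.74% and 49.1% were called, with a median of -20.6 points. How mole reads were assigned to symbols without a homolog group is not given in the sources used here, so a low mole value of such a symbol may be a missing assignment. The same held for the mole annotation: 14.7% and 5.64% of the 11959 symbols found in it were called, against 10.3% and 36.0% of the 5613 not found. Thus 75.2% of the symbols called higher in the mole, and 25% of those called higher in the mouse, had an entry in it. P2rx3, Lpar3, Calcb, Nmb, Kcna2, Pirt and Cd55 had one, whereas Mrgprd, Mrgpra3 and S100b had none, and Fam38a and Whrn had none under those symbols. With ranks taken among named symbols alone, 1637 were called for the mole and 1678 for the mouse. With ranks among symbols of the mole annotation alone, the calls were 1176 and 1207. The lean of these symbols to the mole thus depended on which symbols were ranked.

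**Figure D5:**
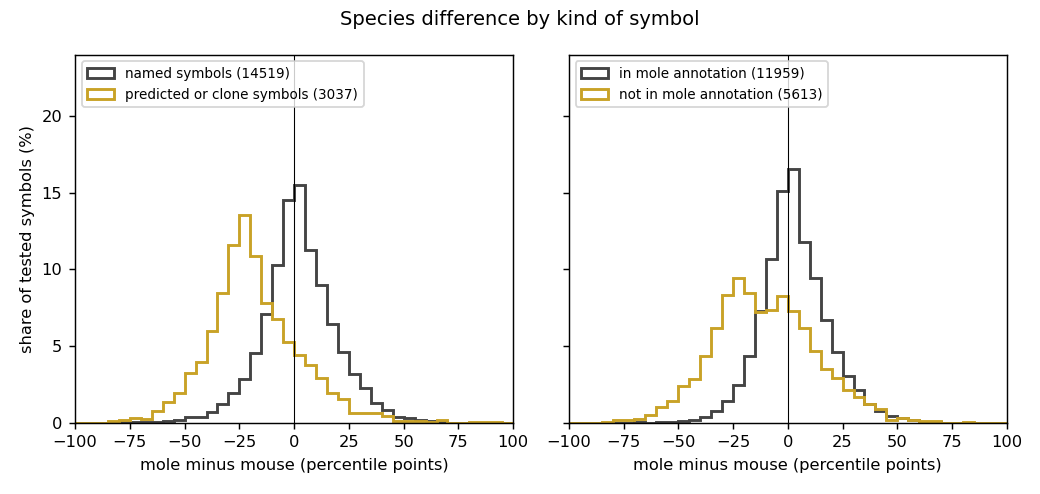
Distribution of the difference in mean percentile (points, mole minus mouse) over tested symbols, split by gene names against predicted genes and by presence in the mole annotation. Predicted genes have a median of -20.6 points and named genes of 1.66.

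The calls leaned on low levels in 1 species. Of the 2332 symbols called higher in the mole, 949 had a mean under 1 CPM in the mouse, and of the 2696 called higher in the mouse, 1728 had a mean under 1 CPM in the mole. Among symbols whose mean percentile was under 50, 19.1% were called for the mole and 27.6% for the mouse. Among those at 90 to 99, such as Fam38b and Calca, 0.68% and 0.19% were, so the lack of a call there says little. When the test was limited to symbols with at least 10 counts in every library, 1577 were called higher in the mole and 609 higher in the mouse. That limit is stricter per CPM in 5 of the 6 mole libraries, the shallow ones, than in the mouse libraries and so removes mostly symbols that are low in the mole.

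The species difference was not the same in both labelled ganglia for many symbols. By limma's interaction test it was higher in the libraries labelled TG for 1419 symbols (8.08%) and higher in those labelled DRG for 1705 (9.70%). Without mouse TG replicate 1, mouse TG replicate 2 or mouse DRG replicate 2 they fell to 460 and 560, 366 and 440, and 474 and 597. Without mole TG replicate 1 they were 2496 and 3156, without mole TG replicate 2 830 and 1092, and without mole DRG replicate 3 960 and 1115. Those with the smallest p-values were Mag, Hapln2 and Olig1, genes of myelinating cells, and Hoxa9, Hoxb5 and Hoxb7. Mag was at 98.1, 96.9 and 98.7 in the mole TG, 64.3, 65.2 and 60.5 in the mole DRG, 67.0 and 67.3 in the mouse libraries with the label TG, against 89.4 and 91.2 with the label DRG. Hoxa9 was at 22.6, 16.3 and 17.8 in the mole TG, 79.1, 76.2 and 79.0 in the mole DRG, 54.1 and 52.9 in the mouse libraries with the label TG, against 22.1 and 19.1 with the label DRG. In both genes the order of the ganglia was opposite in the species. Of 32 tested Hox genes, 4 were called higher in the mole over the pooled libraries, namely Hoxa4, Hoxa13, Hoxc13 and Hoxd11, and Hoxb1 was called higher in the mouse. The call of Hoxa4 was lost without mole DRG replicate 1 or 2 or either mouse library labelled DRG (adjusted p 0.0510 to 0.0980), and without mouse TG replicate 1 the list gave 7 calls for the mole. Within the libraries labelled DRG 23 were called higher in the mole, and within those labelled TG 3, with 4 for the mouse.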

How the data were processed

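The authors deposited raw counts per gene symbol in 1 table per species. Per the study's methods, reads were aligned with Stampy to human, dog and mouse transcripts (mole) or mouse mRNA (mouse), and mole counts were summed over HomoloGene homologs. TruSeq or, for mole TG and DRG replicate 1, genomic kits were used on poly-A RNA. Symbols were matched without regard to case, CPM was computed over shared symbols, and percentiles within each library were tested with limma 3.58.1 (treat with trend and robust variance, minimum difference 10 points) in R 4.3.3. Counts were tested with edgeR 4.0.16 (TMM, quasi-likelihood, minimum fold 2), and DESeq2 1.42.0 was an alternative. Adjusted p-values were over 17572 symbols in the main tests, and over 11959 to 24049 in alternatives that tested another set. The scripts were tested on simulated data. Whether TG and DRG libraries share animals is not given in the sources used here, and p-values measure the spread between libraries. The members and lists were chosen with earlier results of these data known. Genes were named for the largest differences, the smallest interaction p, the highest levels, near absence in 1 species, or as key members of lists. Called list members beyond those and uncalled genes such as Omp or Ret were chosen after their values were seen. Some items are not reported here.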

Additional observations from a re-analysis of the deposited data

Results flagged for a closer look

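In 15 of 230 groups of 4 or 6 libraries (6.52%), 1 library stood further from the rest than Dixon's test allows, where chance gives about 1 in 20. Mole TG replicate 1 stood apart for the keratin Krt14 (percentile 95.4) and the adenylyl cyclase Adcy3 (82.4). Mole DRG replicate 1 did so for Th (94.9), Nefl (99.973) and Tmem181b-ps (40.4), mole DRG replicate 2 for Loc100503539 (26.8), and mole DRG replicate 3 for Nefm (99.969) and Hbb-b1 (97.5). Among mouse libraries, DRG replicate 1 stood apart for Tmem181b-ps (96.95), Krt14 (31.6) and Lgals3 (44.7), and DRG replicate 2 for Loc100504372 (80.0), Mtap1b (99.973), Nefl (99.99) and Rian (99.1).

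For 33 of 115 named genes the species difference changed with the labelled ganglion by limma's interaction test. The values are the mole minus mouse difference in libraries labelled TG less that in libraries labelled DRG, in percentile points, and the summed level of the Hox genes ran in opposite order in the mouse, so the mouse labels are in doubt. For 8 of the 33 genes, namely Maf, Th, Accn3, Acta1, Mog, Gfap, Hoxb5 and Hoxb7, the labelled ganglia differed by more in the mouse than in the mole, so that the sign rests on those labels. Between mole TG and DRG alone these differed by 6.06, 1.65, 2.91, 0.70, 22.8, 27.8, -26.1 and -30.4 points, and between mouse libraries labelled TG and DRG by -13.6, 39.2, -3.60, 19.2, -25.9, -48.2, 59.1 and 42.0 points. Among nociceptor genes, Calca was at -8.95, Tac1 at -7.69, Scn9a at -22.6, Scn10a at -18.3, Scn11a at -35.4, Trpv1 at -36.2 and Trpa1 at -40.9. Cnr1 was at -20.3 and Th at -37.5.

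Maf was at 19.7, Accn3 at 6.50, Stoml3 at 40.2, Cnga2 at 28.2, Rya3 at 47.3 and S100a5 at 41.1. Among genes of glia and myelin, Mbp was at 10.2, Prx at 4.18, Mag at 57.7, Hapln2 at 68.2 and Olig1 at 57.5. Mog and Gfap, from the list of the central nervous system, were at 48.7 and 76.0. Among immune and vessel genes, Csf1r was at 24.4, Cd74 at 21.2, Cldn5 at 32.0 and S100a8 at -57.3. The Hox genes Hoxa9, Hoxb5 and Hoxb7 were at -92.1, -85.2 and -72.4. Of the remaining genes, Hprt was at -20.0, Acta1 at -18.5, Ldha at -3.82 and Cygb at 15.7.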

How the results depend on the processing

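Of the 5028 symbols called in rank, 4052 (80.6%) were called in the same direction with each library left out in turn, against 5832 of 6824 (85.5%) by counts and 756 of 3124 (24.2%) for the interaction. For ranks the calls (mole, then mouse) ranged over 1953 to 2530 and 2283 to 2926 with 1 library left out, for counts over 2307 to 2948 and 3826 to 4615, and for the interaction (higher in TG, then in DRG) over 366 to 2496 and 440 to 3156. The interaction gave 3618 and 4266 without mole TG replicate 1 and mole DRG replicate 2, an alternative chosen after seeing the data, as were those on annotated symbols, named symbols and crossed numbers.

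Against 2332 and 2696 in rank, no minimum difference gave 5449 and 5641 calls, and a minimum of 20 points 689 and 1047. edgeR with TMM gave 2670 and 4154, and limma-voom 2099 and 4176. At least 10 counts in every library, which tests fewer symbols and is stricter per CPM in the mole, gave 1577 and 609, ranks over symbols of the mole annotation 1176 and 1207, and ranks over named symbols 1637 and 1678. With no minimum fold, the count test gave 4409 for the mole. The cause of the other shifts was not tested. Calls stayed within 1.5 times under DESeq2 (2402 and 3373), no filter on low counts (2696 and 2781), libraries thinned to the smallest (2292 and 2600), TruSeq libraries alone (2193 and 2621), libraries labelled TG alone (2910 and 2979) or DRG alone (1625 and 2077), and ranks within bins of GC content (1707 and 1892). The scaling moved the median log2 ratio of mole over mouse from -0.20 with TMM to -0.087 with RLE and -0.36 with library totals.

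Same-numbered TG and DRG libraries deviated together with correlations of 0.0974, 0.266 and -0.0722 in the mole and -0.339 in the mouse, so not every pair passed 0.1 and the numbers were not used to pair libraries. With 2 mouse libraries a ganglion, the mouse value is fixed up to its sign. With the replicate block the ranks gave 2924 and 3279 calls as a correlation and 2773 and 3120 on means of TG and DRG, the interaction gave 1314 and 1577, and crossing the mouse numbers gave 2660 and 3072.

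Of the named genes, 2 reversed: Mag within libraries labelled DRG (-26.9 points) and Hoxa9 within libraries labelled TG (-34.6 points), both uncalled when pooled. Over all settings, 13 named genes lost a call under at least 1 and 34 gained one. DESeq2 gave no adjusted p for Krt5 and Krt14. Mole depth limits symbols near 1 CPM, of which 5 of the 6 mole libraries hold about 10 counts or fewer.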
